A study of Mus musculus with 9 samples.

Results

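Each of 3 cell populations sorted from the fetal mouse gonad was sequenced from an RNA preparation A and an RNA preparation B, here called pool A and pool B. The comparison of pool B with pool A used 6 of the 9 libraries of the study, namely Leydig A and B, Sertoli A and B, and Interstitial A and B, and asked which genes shifted between the pools in all 3 sorts and which in 1 sort. The libraries were chosen by their labels, with no measured value in the choice. The library C of each population was not analysed here, because the protocol describes a further sample made by mixing A with B. All embryos were untreated Sf1-eGFP mice, in which green fluorescence follows the Sf1 (Nr5a1) reporter, collected at 12.5 dpc (days after mating), and the gonads were recognised by their testis cords. In pool A and pool B alike, gonads were dissociated with trypsin-EDTA or TrypLE, and an antibody against CD31 served to take out germ and endothelial cells before collection. A sample combined about 10 sorting experiments done on different days, with 4 to 10 litters in each, and gave 100 ng of total RNA. Which enzyme was used on which day, and whether pools of the same letter share sorting days or litters across the populations, is not given in the sources used here. A pool is therefore a mixture of many animals. Each population has 1 library for each pool, so the p-values weigh the pool difference against its disagreement between the populations. They do not measure a spread between replicates of a pool, and a difference shared by the populations may be technical.

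Sertoli cells line the testis cords and enclose the germ cells, fetal Leydig cells make androgens from cholesterol between the cords, and the other interstitial cells include progenitors, vessels, nerves and blood. A cell that has been cut out of its tissue, dissociated and sorted keeps transcribing, and immediate early genes, which are transcribed within minutes of a stimulus without new protein synthesis, are a known readout of handling. Sorts of this kind are also known to carry over some RNA of neighbouring cells, such as germ cells and red blood cells. Small structured RNAs are copied in part by total RNA libraries, which select no poly(A) tail.

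The 6 libraries held 33123254 to 38585611 reads assigned to genes, given below as CPM (reads of a gene scaled to a common total of reads in genes for each library, without a length correction, so levels are compared between libraries and not between genes). Reads outside annotated genes were 32.3% and 38.5% of the total in Leydig A and B, 32.9% and 36.0% in Sertoli A and B, and 33.9% and 32.5% in Interstitial A and B. The sorts matched their labels only in part. Amh, the Sertoli hormone that removes the Müllerian ducts, was at 1552 and 1643 CPM in Sertoli A and B, at 461 and 427 in the Leydig pair and at 54.9 and 65.5 in the Interstitial pair. Cyp17a1, the androgen-forming lyase of Leydig cells, was at 151 and 69.8 CPM in Leydig A and B, but also at 78.7 and 66.7 in Sertoli A and B. Insl3, a hormone of Leydig cells, was under 1 CPM in all 6 libraries.

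With population as a block and 17211 genes tested, edgeR's quasi-likelihood test at a Benjamini-Hochberg adjusted p under 0.05 (a call, below) found 114 genes higher in pool B (0.662% of those tested) and 59 lower (0.343%), 173 in all (1.01%). Of the genes called higher, 108 moved the same way in all 3 populations, and all 59 called lower did. Most shifts were small: 47 of the 114 and 28 of the 59 reached 1.5-fold in the fit, and 20 and 4 reached 2-fold. Protein-coding genes made up 108 of the 114 but only 34 of the 59, and 14575 of the 17211 genes tested. Histone genes were 16 of the 59. Across all 17211 genes the median fitted log2 difference was 0.00, and 3403 genes (19.8%) were higher and 3184 (18.5%) lower in pool B in all 3 populations at any size. At 1.5-fold or more, 66 (0.383%) were higher and 23 (0.134%) lower in all 3. Within 1 population, 1181 genes (6.86%) were 1.5-fold or more higher in B and 407 (2.36%) lower in Leydig, 671 (3.9%) and 646 (3.75%) in Sertoli, and 616 (3.58%) and 546 (3.17%) in Interstitial. The log2 differences of the 3 populations were weakly related across genes: at a mean of 5 CPM or more (11561 genes), Pearson's r was 0.11 between Leydig and Sertoli, 0.42 between Leydig and Interstitial and 0.30 between Sertoli and Interstitial. Genes are not independent replicates, so these values describe the tables and have no test.

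Immediate early genes gave more calls than any other list. Of 32 tested members of the list, 24 were called higher, where 0.662% of all genes were, and none was called lower. In all 3 populations 29 were above 0, as 19.8% of all genes were. Their median fitted log2 difference was 0.68 against 0.00 over all genes, and 9 of the 32 rose by 1.5-fold or more in every population, where 0.383% of all genes did. The summed level of the list went from 1990 to 3203 CPM in Leydig, from 2275 to 3581 in Sertoli and from 1549 to 2389 in Interstitial. Without the Interstitial pair 15 of the genes were called, and without the Sertoli or the Leydig pair 21 and 25.

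Fos and Jun family proteins form the AP-1 transcription factor. Fos (chr12:85473890-85477273, plus strand, GRCm38) was at 174 CPM in Leydig A and 288 in Leydig B, at 172 and 236 in the Sertoli pair and at 115 and 200.2 in the Interstitial pair. All 3 B libraries lay above all 3 A libraries, and the fitted log2 difference was 0.66 ± 0.06 (edgeR adjusted p = 0.0015). Here and below, ± gives an SE derived from edgeR's test, as the log2 difference over the square root of its F statistic. That test borrows spread from all genes, so this SE is not the spread of the 3 pairs. Jun went from 146 to 242 CPM in Leydig, from 148 to 281 in Sertoli and from 143 to 209 in Interstitial (log2 difference 0.73 ± 0.06, edgeR adjusted p = 0.00099). Junb rose by 0.82, Maff, a small Maf partner of AP-1, by 0.72, Fosl2 by 0.42 and Fosb by 0.32 on the log2 scale, all called by edgeR. Jund, which is transcribed at a steady level in many cells, was not called, with levels between 113 and 158 CPM in the 6 libraries and pool B lower than A in Leydig and Sertoli. Atf3, a stress-induced partner of Jun, was at 11.8 and 25.3 CPM in the Leydig pair, at 9.59 and 21.7 in the Sertoli pair and at 18.9 and 26.9 in the Interstitial pair (log2 difference 0.91 ± 0.12, edgeR adjusted p = 0.0099).

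Of the zinc finger factors of the EGR family, Egr1, Egr2 and Egr3 were called higher. Egr2 (chr10:67535475-67542188, plus strand) went from 14.0 to 42.9 CPM in Leydig, from 17.6 to 37.5 in Sertoli and from 11.4 to 30.0 in Interstitial, so that every B library exceeded every A library (log2 difference 1.36 ± 0.09, edgeR adjusted p = 0.00024). Egr1 went from 127 to 253 CPM, from 138 to 216 and from 101 to 185 in the same order. Egr3, at 1.27 to 1.66 CPM in the A libraries, reached 5.12 in Leydig B and 4.41 in Interstitial B but 1.80 in Sertoli B (log2 difference 1.34 ± 0.22, called). Arc (chr15:74669083-74672570, minus strand), an activity-induced capsid-like protein best known from neurons, had the largest difference on the list, with 3.44 and 15.6 CPM in the Leydig pair, 1.49 and 4.50 in the Sertoli pair and 6.02 and 15.4 in the Interstitial pair (log2 difference 1.70 ± 0.16, edgeR adjusted p = 0.0013). Its A and B libraries overlapped across populations, because Sertoli B stayed below Interstitial A.

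The orphan nuclear receptors Nr4a1 and Nr4a3 were called, and Nr4a2 was not. Nr4a1 was at 73.6 and 146 CPM in Leydig A and B, at 127 and 189 in Sertoli and at 38.3 and 76.1 in Interstitial (log2 difference 0.85 ± 0.08). Nr4a2 was also above pool A in each pair, at 7.11 and 9.23, 4.73 and 6.77, and 5.12 and 6.24 CPM. Of the secreted matricellular proteins, Ccn1 (chr3:145646976-145649981, minus strand), a target of mechanical and serum signals, had the smallest adjusted p of the list. It went from 217 to 491 CPM in Leydig, from 280 to 558 in Sertoli and from 154 to 319 in Interstitial, and the A and B libraries did not overlap (log2 difference 1.07 ± 0.05, edgeR adjusted p = 3.9e-05). Ccn2 rose by 0.69 on the log2 scale.

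Genes whose products switch the response off again rose beside the activators. They include Zfp36, which destabilises AU-rich mRNAs (log2 difference 0.79), the MAP kinase phosphatase genes Dusp1 (0.74) and Dusp6 (0.39), the antiproliferative gene Btg2 (0.87), the cytokine signal inhibitor Socs3 (0.43) and Ppp1r15a, which reverses the block of translation under stress (0.45). Dusp1 was at 46.4 and 75.3 CPM in Leydig A and B, at 47.7 and 99.4 in Sertoli and at 47.7 and 65.8 in Interstitial, again with no overlap between the pools. Btg2 went from 103 to 211 CPM in Leydig, from 174 to 272 in Sertoli and from 67.6 to 128 in Interstitial. Myc, Klf2, Klf4, Ier3, Ier5 and Dusp2 were the other listed members with no call.

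**Figure D1:**
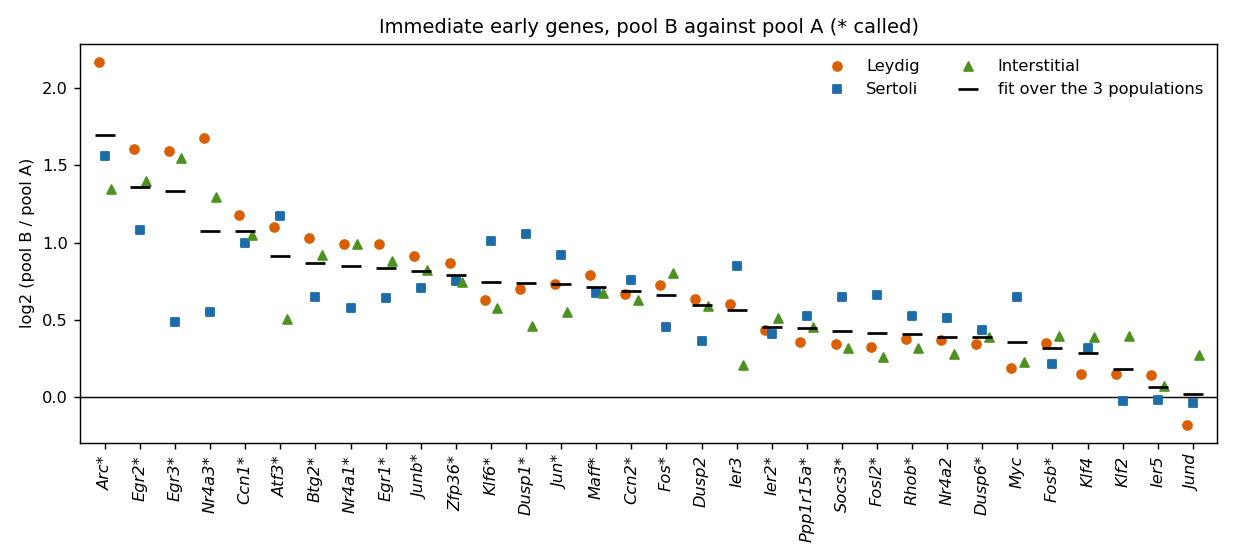
Log2 ratio of pool B to pool A (vertical axis, log2 CPM difference with a prior count of 2) for the 32 tested immediate early genes, with 1 symbol for each population and a black bar for the fit over the 3 pairs. Stars mark the 24 genes called by edgeR, and the points of 29 genes lie above 0 in all 3 populations.

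The promoters of these genes were searched for short motifs known from immediate early genes. Most of the genes had no match, and 4 promoters picked because they hold a match are printed. The stretches of 100 bases are from RefSeq on GRCm38.p6, with the motif in capitals: the cAMP response element TGACGTCA in Btg2 (chr1:134079268-134079367, minus strand, 166 bases before the annotated start) and Dusp1 (chr17:26508562-26508661, minus strand, 143 bases before), and the CArG box, which serum response factor binds, in Egr2 (chr10:67537448-67537547, plus strand, 72 bases before) and Zfp36 (chr7:28379233-28379332, minus strand, 58 bases before).
Btg2 promoter: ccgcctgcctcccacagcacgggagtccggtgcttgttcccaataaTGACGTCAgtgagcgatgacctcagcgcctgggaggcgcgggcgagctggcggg
Dusp1 promoter: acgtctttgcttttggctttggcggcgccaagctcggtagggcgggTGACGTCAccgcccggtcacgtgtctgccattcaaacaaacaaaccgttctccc
Egr2 promoter: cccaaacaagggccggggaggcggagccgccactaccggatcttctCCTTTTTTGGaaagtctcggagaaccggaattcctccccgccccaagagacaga
Zfp36 promoter: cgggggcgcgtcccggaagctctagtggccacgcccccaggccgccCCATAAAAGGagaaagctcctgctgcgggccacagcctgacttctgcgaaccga
In the 250 bases before the start, on both strands, TGACGTCA was found for 4 of the 19 called immediate early genes that matched the RefSeq table (21.1%: Btg2, Dusp1, Maff and Ppp1r15a), against 1.77% of all 27025 genes in it and 2.91% of the genes tested. The CArG box was found for 2 of the 19 (10.5%), against 1.62% of all genes and 1.4% of the genes tested. TGANTCA, the AP-1 motif, neither contains nor overlaps the other motifs as spelled. It was found for 0 of the 19, against 7.82% of all genes and 5.41% of the genes tested. With 19 genes, such a count does not set them apart from that share. A gene with several starts has more windows in which to match. RefSeq gives 5 promoters for Egr2, 4 of them with the CArG box, and 1 each for Btg2, Dusp1 and Zfp36. The printed Dusp1, Egr2 and Zfp36 stretches lie inside the spans that GENCODE gives these genes. The motif counts describe letters in a window and say nothing of binding.

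Outside the list, 75 of the 114 genes called higher were on no list of genes examined. The genes below were picked after their values were seen, apart from Hes1 and Gadd45b, which were among the largest called differences. Several are known companions of the immediate early response. Hes1 (chr16:30064384-30067796, plus strand), a Notch target and repressor that stood on the list of interstitial progenitor genes, went from 64.8 to 156 CPM in Leydig, from 49.3 to 142 in Sertoli and from 48.3 to 100.3 in Interstitial (log2 difference 1.28 ± 0.08, edgeR adjusted p = 0.00021). Gadd45b, a stress-induced gene of growth arrest, was at 7.62 and 11.4, 6.75 and 18.9, and 8.22 and 15.7 CPM in the Leydig, Sertoli and Interstitial pairs. Both genes had every B library above every A library. Here and for other genes, such a separation describes the values that gave the calls and is no further test. Its share over all genes was not counted. Slc7a2, a cationic amino acid transporter, rose by 0.93 on the log2 scale, Thbs1, a matricellular protein, by 0.70, and the phosphatase genes Dusp5 by 0.74, Dusp8 by 0.77 and Dusp4 by 0.40. Transcription factor genes of the same set were Egr4 (1.72), Irf1 (0.63), Cebpd (0.67), Stat3 (0.54), Csrnp1 (0.56), Mafk (0.47), Srf (0.32) and Hey1 (0.37). Ankrd1, a mechanically induced nuclear protein, rose from 0.45 to 2.37 CPM in Leydig, from 0.82 to 3.41 in Sertoli and from 1.15 to 2.74 in Interstitial.

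Other stress programmes moved little. Of 21 heat shock and chaperone genes, edgeR called only Dnajb4, a co-chaperone of Hsp70, which went from 65.3 to 100.4 CPM in Leydig, from 45.3 to 79.6 in Sertoli and from 50.5 to 67.4 in Interstitial (log2 difference 0.62 ± 0.07, edgeR adjusted p = 0.0044). Hspa1a and Hspa1b, the near-identical inducible Hsp70 genes whose reads can be split between them, were not called. Hspa1a was at 8.89 and 8.85 CPM in Leydig A and B, 10.4 and 11.6 in Sertoli and 4.42 and 7.86 in Interstitial. Of 21 genes of the unfolded protein and amino acid response only Dnajb9 was called (log2 difference 0.29). edgeR called 0 of 16 p53 targets (4 at an unadjusted p under 0.05, and 0 with DESeq2), 0 of 25 hypoxia and glycolysis genes (7 unadjusted, 0 with DESeq2) and 0 of 13 interferon response genes (5 unadjusted, 0 with DESeq2). For these and later lists, the unadjusted count over all genes was not taken in the main fit. In edgeR with another scaling (RLE), 1424 of 17211 genes were higher and 1190 lower at an unadjusted p under 0.05.

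The NF-kB and inflammatory list had no call among 12 genes, although 7 were higher in B at an unadjusted p under 0.05 and DESeq2 and limma voom called 1 each. Its median log2 difference was 0.50. The chemokine genes Cxcl1, Cxcl2 and Cxcl10 had the largest differences with edgeR adjusted p-values of 0.068, 0.077 and 0.081. Cxcl1 was at 0.54 and 1.71 CPM in Leydig A and B, at 0.98 and 3.97 in Sertoli and at 2.88 and 4.50 in Interstitial. Of 22 cholesterol synthesis genes, 3 were called higher, where 0.662% of all genes were. All 3 are targets of the sterol-regulated factor SREBP: Insig1 (0.38), Idi1 (0.32) and Msmo1 (0.29). The median of the list was 0.13. The 3 calls became 0 without the Sertoli pair, 0 without the Interstitial pair and 1 with no filter on low counts. edgeR called 0 of 34 cell cycle genes (2 unadjusted, 0 with DESeq2), 0 of 79 cytosolic ribosomal protein genes (14 lower unadjusted, 2 lower with DESeq2) and 0 of 13 mRNAs of the mitochondrial genome (3 lower unadjusted, 0 with DESeq2). Among nuclear-retained long RNAs, Neat1, the scaffold of paraspeckles, rose from 43.5 to 61.1, from 100.2 to 115 and from 31.6 to 42.1 CPM (log2 difference 0.36, called), while Malat1 lay at 7131 and 6790, 8720 and 9327, and 5119 and 4917 CPM without a call.

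Small structured RNAs made up 6 of the 10 genes at 5 CPM or more with the largest called falls in pool B. Rnu3a is a U3 small nucleolar RNA, which guides cleavage of the ribosomal RNA precursor. Rn7s6 is a 7SL RNA, the core of the signal recognition particle, and Rmrp is the RNA of the RNase MRP ribonucleoprotein. The sequences of Rnu3a and Rmrp are shown because these molecules carry the finding, read 5′ to 3′ from GENCODE M21 transcripts on GRCm38: Rnu3a at chr10:40258467-40258680 (plus strand, capitals for the letters TGATGA and CTGA of its C and D boxes) and Rmrp at chr4:43492788-43493058 (minus strand, no capitals).
Rnu3a: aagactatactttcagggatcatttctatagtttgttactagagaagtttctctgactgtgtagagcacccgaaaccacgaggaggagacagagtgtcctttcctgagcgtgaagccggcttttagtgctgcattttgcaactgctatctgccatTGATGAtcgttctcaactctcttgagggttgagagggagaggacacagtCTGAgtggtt
Rmrp: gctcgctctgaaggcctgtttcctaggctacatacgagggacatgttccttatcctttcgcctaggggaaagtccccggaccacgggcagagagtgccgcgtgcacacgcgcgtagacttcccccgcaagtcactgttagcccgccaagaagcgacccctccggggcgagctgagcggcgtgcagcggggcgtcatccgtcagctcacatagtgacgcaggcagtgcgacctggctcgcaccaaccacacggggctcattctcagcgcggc
Because several of the small RNA genes have near-identical genomic copies, the authors' counting could split or drop reads between copies, and each single gene below is uncertain to that extent.

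Rnu3a fell from 55.3 to 24.98 CPM in Leydig, from 37.6 to 21.2 in Sertoli and from 70.0 to 24.1 in Interstitial. All 3 B libraries lay below all 3 A libraries (log2 difference -1.18 ± 0.11, edgeR adjusted p = 0.0013). Rn7s6 fell from 916 to 490.1 CPM, from 1045 to 508 and from 900.5 to 474 in the same order, also without overlap (log2 difference -0.96 ± 0.04, edgeR adjusted p = 3.9e-05). The ribozyme RNAs fell with them. Rmrp was at 1269 and 784 CPM in Leydig A and B, at 1476 and 702 in Sertoli and at 1693 and 852 in Interstitial (log2 difference -0.92 ± 0.07, edgeR adjusted p = 0.00034). Rpph1 (chr14:50807449-50807767, minus strand), the RNA of RNase P, which trims transfer RNA precursors, was at 1012 and 712, 1303 and 664, and 1338 and 762 CPM (log2 difference -0.76, edgeR adjusted p = 0.0020). In both genes the 3 B libraries again lay below the 3 A libraries.

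Rn7sk (chr9:78175303-78175633, minus strand), the 7SK RNA that holds the elongation factor P-TEFb inactive, went from 7771 to 6144 CPM in Leydig, from 7953 to 4821 in Sertoli and from 8533 to 5071 in Interstitial (log2 difference -0.60 ± 0.08, edgeR adjusted p = 0.011). Of the 7SK copies, Gm24447 and Gm26315 share a run of 241 and 235 bases with Rn7sk and fell by 0.64 and 0.66, and Gm26035, with a shared run of 109 bases, fell by 1.00 on the log2 scale. The U2-like copies Gm25939 and Gm25360, both of 191 bases and different at 3 positions, fell by 0.77 and 0.64. Gene IDs with no symbol in the annotation were among the most abundant of those called: ENSMUSG00000092773 went from 9184 to 4797 CPM in Leydig, from 11070 to 4959 in Sertoli and from 9032 to 3706 in Interstitial, and ENSMUSG00000092665 fell by 1.12 on the log2 scale. Rprl3, a further RNase P-like RNA, and Terc, the telomerase RNA, were not called, with log2 differences of -0.53 and -0.47 and edgeR adjusted p-values of 0.053 and 0.14.

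Most other small RNAs were not called. Of 221 tested small nucleolar and Cajal body RNAs, 5 were called lower (Rnu3a, Gm22442, Scarna10, Snora73b and Scarna13) and 0 higher (6 higher at an unadjusted p under 0.05, 0 with DESeq2), and the median log2 difference was 0.00. The 5 calls became 9 without the Leydig pair and 2 without the Sertoli pair, without the Interstitial pair or with no filter on low counts. In Interstitial the median was -0.16, with 32 of the 221 lower and 6 higher by 1.5-fold or more, and the summed level was at 1283 and 899.5 CPM in A and B. In Leydig 31 were higher and 7 lower by that fold, with a median of 0.11, and in Sertoli 25 and 21, with a median of 0.06. Over all genes, 6.86% were higher and 2.36% lower by that fold in Leydig, 3.9% and 3.75% in Sertoli, and 3.58% and 3.17% in Interstitial. Many of the 221 had few reads, and 118 passed a filter at 1 CPM in 3 libraries. Of 77 small nuclear RNAs 2 were called lower, of 124 microRNA hairpins 1 was called higher, and of the 8 abundant small structured RNAs on a list of their own 3 were called lower. Over all genes tested, 0.343% were called lower and 0.662% higher, and the 1 hairpin call is near that share. By transcript length, 11 of 36 structured RNA genes of 200 to 400 bases were called lower with a median of -0.26, against 2 of 42 between 150 and 200 bases, 1 of 178 between 100 and 150 and 0 of 195 below 100, where the median was 0.06. Protein-coding genes, histones left out, ran from a median of -0.08 below 1000 exonic bases to 0.03 above 8000. The reads of the annotation's miscellaneous RNA class fell from 1.15% to 0.875% of the reads in genes in Leydig, from 1.18% to 0.700% in Sertoli and from 1.28% to 0.763% in Interstitial.

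**Figure D2:**
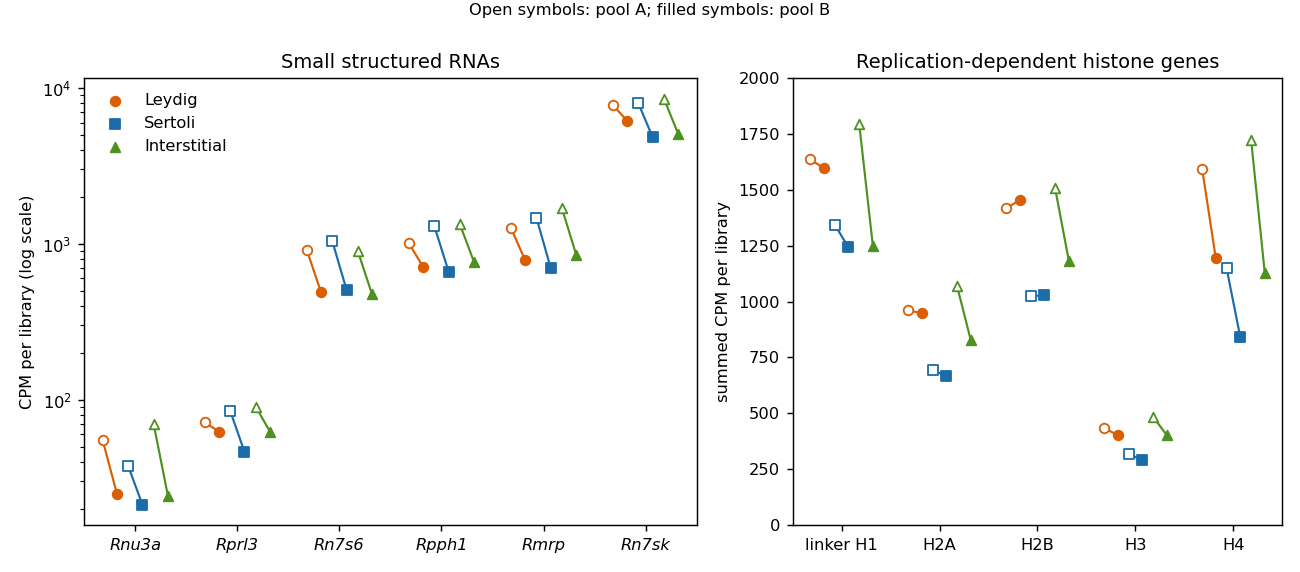
Left, CPM per library (logarithmic axis) of 6 small structured RNAs, and right, summed CPM per library of the replication-dependent histone genes by class, with an open symbol for pool A joined to a filled symbol for pool B in each population. Every small RNA shown is lower in B in all 3 populations, though Rprl3 was not called, and the H4 sum is lower in each pair while the other classes move mainly in Interstitial.

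Replication-dependent histone genes, which are transcribed in S phase into short mRNAs that end in a stem-loop in place of a poly(A) tail, gave 15 calls lower and 1 higher among 57. Over all genes 0.343% were called lower and 0.662% higher. The calls were concentrated in 1 class. Of 13 H4 genes, 12 were called lower by edgeR, all 13 were below 0 in all 3 populations, and their log2 differences ran from -0.67 to -0.32. Their summed level went from 1596 to 1194 CPM in Leydig, from 1150 to 840 in Sertoli and from 1725 to 1127 in Interstitial. Hist1h4f went from 131 to 84.9 CPM, from 96.8 to 62.4 and from 153 to 89.97 in the same order (log2 difference -0.67 ± 0.05, edgeR adjusted p = 0.00024). Of the other classes, 2 of 6 linker H1 genes (Hist1h1c and Hist1h1e), 1 of 17 H2A genes (Hist2h2aa1), 0 of 15 H2B genes and 0 of 6 H3 genes were called lower, and Hist1h2ba, a testis-type H2B, was called higher (0.56).

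In Interstitial all 5 classes had negative medians, from -0.22 for H3 to -0.64 for H4, whereas in Leydig and Sertoli the medians of H1, H2A and H2B lay between -0.08 and 0.06. Histone coding sequences are close to identical within a class, so that reads can move between members but less easily between classes. Without the Interstitial pair 5 H4 genes were called, and without the Sertoli pair 9. The cell cycle list had a median of 0.00, and its relation to the histone values was not tested.

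Several genes of steroid synthesis were lower in pool B, with list medians of -0.39 in Leydig, -0.10 in Sertoli and -0.18 in Interstitial. Of 19 tested genes of fetal Leydig cells and steroid synthesis, 4 were called lower and 0 higher (1 higher at an unadjusted p under 0.05, 0 with DESeq2). In all 3 populations 12 were below 0, and the median of the fit was -0.28. Over all genes, 0.343% were called lower and 18.5% were below 0 in all 3 populations. Cyp11a1 (chr9:58006411-58027023, plus strand), which cuts the cholesterol side chain, went from 74.1 to 33.9 CPM in Leydig, from 52.9 to 41.5 in Sertoli and from 10.4 to 4.50 in Interstitial (log2 difference -0.84 ± 0.14, edgeR adjusted p = 0.031). Cyp17a1 (chr19:46667165-46673172, minus strand) was at 151 and 69.8, 78.7 and 66.7, and 21.2 and 12.4 CPM (log2 difference -0.71 ± 0.13, edgeR adjusted p = 0.0497). Each pair moved downward, but the populations differ more than the pools, so that the A and B libraries overlapped.

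Hsd3b1, the next enzyme of the pathway, fell by 0.54 and Ren1, the renin gene, by 0.48 on the log2 scale. Star, which carries cholesterol into mitochondria, was not called over the 3 pairs (log2 difference -0.36, edgeR adjusted p = 0.16), at 70.4 and 44.1 CPM in Leydig, 50.7 and 47.2 in Sertoli and 12.3 and 10.3 in Interstitial. The fall in Leydig exceeded that in the other sorts for Cyp17a1, by 0.64 on the log2 scale (edgeR adjusted p = 0.0047 for the difference between populations), and for Star, by 0.51 (edgeR adjusted p = 0.040). Lhcgr, the luteinising hormone receptor, had a log2 difference of -0.62 without a call (edgeR adjusted p = 0.097). In sorted bulk samples, fewer cells of a type and less RNA per cell cannot be told apart. The 4 calls fell to 2 with library size scaling and with DESeq2, and to 0 with no filter on low counts or without the Interstitial pair. In the same Leydig B library, the summed germ cell list was at 415 CPM against 128 in Leydig A and the erythroid list at 595 against 168, and their part in the steroid values was not tested.

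Genes of red blood cells had larger differences in Leydig and Sertoli than in Interstitial, with median log2 differences of 1.60, 1.02 and 0.34 over 16 tested genes, of which 8 were above 0 in all 3 populations, as 19.8% of all genes were. The summed level of the list went from 168 to 595 CPM in Leydig and from 175 to 482 in Sertoli, and was 14540 and 15010 CPM in Interstitial A and B. Over the 3 pairs, 3 of 16 genes were called higher, where 0.662% of all genes were: the embryonic globin gene Hba-x (chr11:32276400-32278116, plus strand) and the membrane protein genes Epb42 and Slc4a1. Hba-x was at 11.6 and 48.2 CPM in Leydig A and B, at 10.6 and 36.5 in Sertoli and at 730 and 1004 in Interstitial (log2 difference 1.33 ± 0.25, edgeR adjusted p = 0.046). Kel, a blood group protein of the same cells that was on no list, went from 0.27 to 1.07, from 0.056 to 0.677 and from 12.8 to 25.8 CPM (log2 difference 1.17, called).

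The globin genes of the adult type did not share the increase in Interstitial. Hbb-bt was at 6.72 and 26.0 CPM in Leydig A and B, at 9.14 and 21.5 in Sertoli and at 1499 and 1161 in Interstitial. In the Interstitial pair Hbb-bs was at 2485 and 2005 CPM, Hba-a1 at 2966 and 2953 and Hba-a2 at 2325 and 2209, while Hbb-y, an embryonic globin gene, was at 4194 and 5203. The Interstitial difference was called lower than that of the other sorts for 6 genes (0.0349% of genes tested), of which 5 were globin genes: Hbb-bt, Hba-a1, Hba-a2, Hbb-y and Hba-x. With no filter on low counts 1 erythroid gene was called. Hba-a1 and Hba-a2 are near-identical copies whose reads can be split. In the Leydig pair the rise exceeded that of the other sorts for 7 of 16 erythroid genes, where 1.03% of all genes did, but the count was 0 with DESeq2, 0 with no filter on low counts, 2 with lanes 1 and 2 and 1 with lanes 3 and 4. The 3 calls over all pairs became 8 without the Interstitial pair, 5 without Leydig and 1 without Sertoli.

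Macrophage and leukocyte genes were higher in pool B in 9 of 17 cases in all 3 populations, as 19.8% of all genes were, with a median of 0.44. There were 2 calls, where 0.662% of all genes were called higher, and they became 0 without the Interstitial pair. By population the median was 0.57 in Leydig, 0.04 in Sertoli and 0.43 in Interstitial. Lyz2 (chr10:117277331-117282321, minus strand), the lysozyme of myeloid cells, was at 0.84 and 2.28 CPM in Leydig A and B, at 0.028 and 0.383 in Sertoli and at 6.82 and 15.9 in Interstitial (log2 difference 1.31 ± 0.18, edgeR adjusted p = 0.010). Csf1r, the receptor of the macrophage growth factor, was at 4.13 and 7.58, 0.68 and 0.94, and 13.9 and 21.9 CPM (log2 difference 0.72, called). C1qb, a complement gene of tissue macrophages, was not called and lay at 4.80 and 5.00 CPM in Interstitial A and B.

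Germ cell genes separated the Leydig pair from the others. Of 20 tested germ cell genes, 17 rose more in Leydig than in the other sorts by edgeR's test of that difference, where 1.03% of all genes did. The same list had 0 calls over the 3 pairs (3 higher at an unadjusted p under 0.05, 0 with DESeq2). The median log2 difference was 1.91 in Leydig, -0.51 in Sertoli and 0.18 in Interstitial. Summed, the list went from 128 to 415 CPM in Leydig, from 182 to 126 in Sertoli and from 1393 to 1586 in Interstitial, so that Leydig B still held less germ cell RNA than either Interstitial library.

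Dazl (chr17:50279395-50293636, minus strand), an RNA-binding protein that licenses germ cells, was at 22.6 and 100.1 CPM in Leydig A and B, at 37.8 and 25.8 in Sertoli and at 365 and 437 in Interstitial. The Leydig difference exceeded that of the other sorts by 2.26 ± 0.16 on the log2 scale (edgeR adjusted p = 1.7e-12). Pou5f1, the pluripotency factor kept by germ cells of this age, was at 7.11 and 31.5, 12.6 and 9.09, and 114 and 124 CPM. Dppa3 (chr6:122626410-122630272, plus strand), an egg and germ cell chromatin protein, was at 10.6 and 49.0, 19.7 and 10.9, and 185 and 213 CPM. For all 3 genes Leydig A had the lowest level of the 6 libraries and Leydig B stood above both Sertoli libraries. Kit, the stem cell factor receptor, was called with a smaller difference (0.54), and Sycp3, Nanos3 and Tdrd1 were the listed genes without a call.

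**Figure D3:**
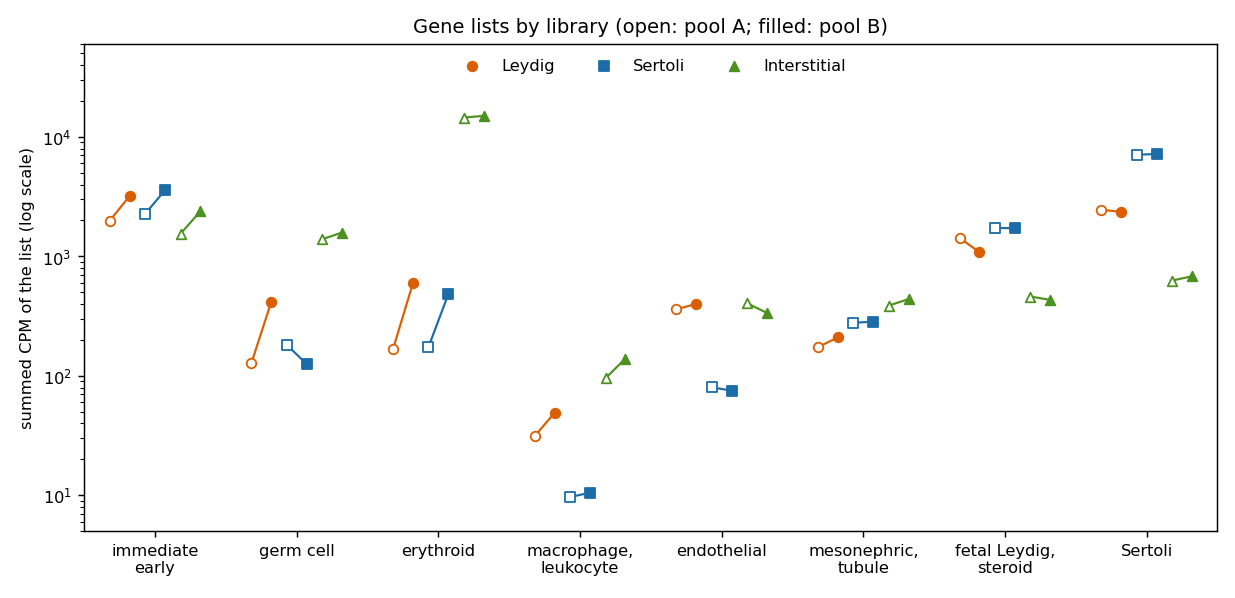
Summed CPM per library (logarithmic axis) of 8 gene lists, with an open symbol for pool A joined to a filled symbol for pool B in each population. The immediate early sums rise in all 3 pairs, the germ cell sum rises from 128 to 415 in Leydig and falls from 182 to 126 in Sertoli, and the erythroid sum goes from 168 to 595 in Leydig and from 175 to 482 in Sertoli, against 14540 and 15010 in Interstitial.

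The Leydig difference was a property of a large set. edgeR called 177 genes as rising more in Leydig than elsewhere (1.03% of 17211) and 7 as falling more (0.0407%), against 0 and 1 for Sertoli (0.0% and 0.00581%) and 0 and 6 for Interstitial (0.0% and 0.0349%). At an unadjusted p under 0.05, 770 genes were higher for Leydig, 486 for Sertoli and 207 for Interstitial, and DESeq2 called 59, 0 and 1. The fits also differed in how much spread they borrowed from all genes, with 35.7 prior degrees of freedom for Leydig, 7.19 for Sertoli and 7.2 for Interstitial. The counts of calls therefore do not compare the populations at equal power. These 3 tests reuse the same 6 libraries, so a gene that moves in Leydig alone also weighs on the other 2 contrasts. Of the 177 genes, 173 (97.7%) were higher in Interstitial A than in Leydig B, compared with 51.5% of all genes, and 158 (89.3%) by 2-fold or more, compared with 7.18%. DESeq2 called 60 Leydig genes, and 9 of the germ cell genes, and with no filter on low counts 8 genes and 2 germ cell genes were called.

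Some epithelial genes were also in the set. From the list of mesonephric and tubule epithelium, 4 of 16 genes were called higher for Leydig, where 1.03% of all genes were: Lhx1, Cdh1, Esrp1 and Epcam. Cdh1, the E-cadherin gene, was at 2.62 and 10.1 CPM in Leydig A and B, at 4.78 and 4.50 in Sertoli and at 40.9 and 49.7 in Interstitial. The tubule genes Pax2, Cdh16 and Emx2 of the same list were not called. Which cells the reads of these genes came from was not tested. Pecam1, which encodes the CD31 antigen of the depletion step, went from 24.2 to 36.0 CPM in Leydig, from 13.0 to 8.86 in Sertoli and from 68.9 to 73.8 in Interstitial (Leydig above the others by 0.74, edgeR adjusted p = 0.0063). Cdh5, an endothelial cadherin, was at 51.1 and 52.2 CPM in Leydig A and B and was not called, and Pecam1 was the only one of 18 endothelial genes called for Leydig.

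Lars2 (chr9:123366927-123462666, plus strand), the mitochondrial leucyl-tRNA synthetase, went the other way in Leydig. It stood at 132 CPM in Leydig A, at 49.0 in Leydig B and between 20.6 and 25.7 in the other 4 libraries. The Leydig difference relative to that of the others was -1.65 ± 0.12 on the log2 scale (edgeR adjusted p = 6.6e-12). Leydig A and B both exceeded the other sorts. Hsp90aa1, a chaperone gene also abundant in germ cells, was at 704 and 958 CPM in Leydig A and B, at 781 and 743 in Sertoli and at 1644 and 1700.0 in Interstitial (0.46 above the others, edgeR adjusted p = 0.013).

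**Figure D4:**
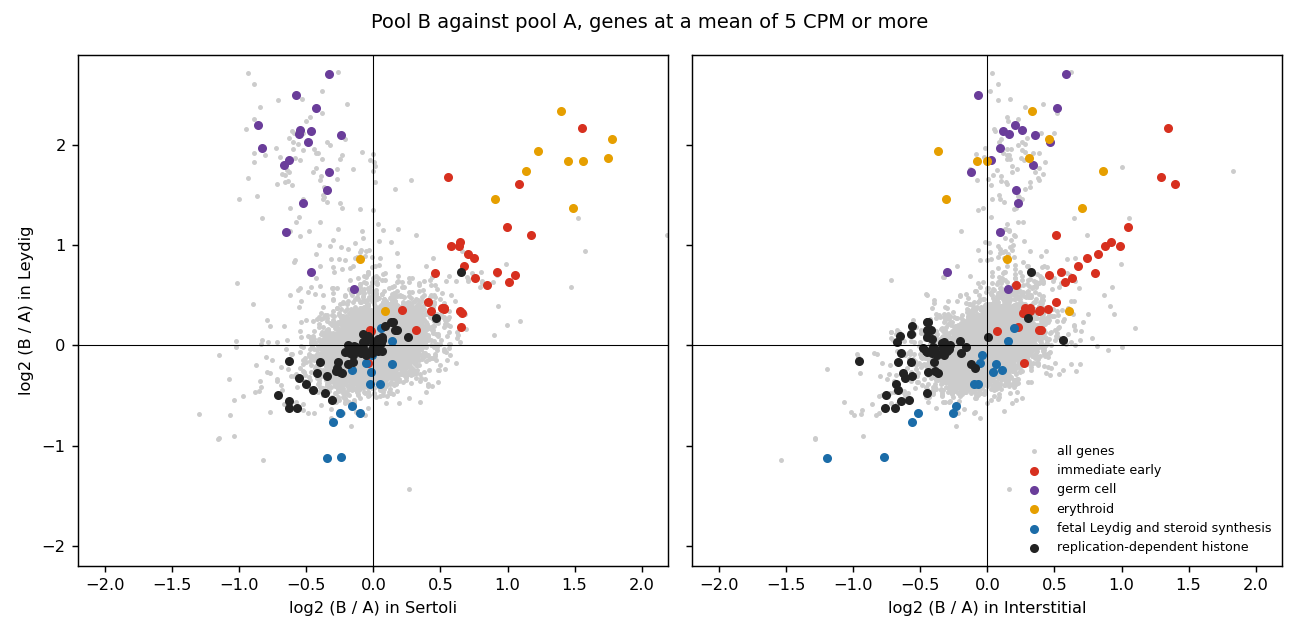
Log2 ratio of pool B to pool A in Leydig (vertical axis) against Sertoli (left) and Interstitial (right) for the 11561 genes at a mean of 5 CPM or more, in grey, with members of 5 lists in colour. Immediate early genes lie in the upper right of both panels, germ cell genes lie high in Leydig but left of 0 in Sertoli, and 3 genes on the left and 2 on the right fall outside the axes.

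Xist was the gene that set Interstitial apart most. Xist (chrX:103460366-103483254, minus strand), the RNA that silences an X chromosome in female cells, was at 119 CPM in Interstitial A and 7.27 in Interstitial B, at 12.7 and 10.6 in Leydig and at 29.1 and 16.8 in Sertoli. The Interstitial difference relative to that of the others was -3.47 ± 0.21 on the log2 scale (edgeR adjusted p = 0.0025). The Y-linked gene Ddx3y was present in all 6 libraries and was at 72.7 and 87.5 CPM in Interstitial A and B, 108 and 119 in Leydig and 120 and 139 in Sertoli, without a call. Of the 10 tested pregranulosa genes, which mark the ovarian counterpart of Sertoli cells, edgeR called 0 (2 lower at an unadjusted p under 0.05, 0 with DESeq2).

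A few genes known from chromaffin and neuroendocrine cells were examined in Interstitial. Chgb was named by its Interstitial difference, the others were picked after their values were seen, and none was called as an Interstitial shift. Chgb (chr2:132781278-132795079, plus strand), a secretory granule protein, was at 1.68 CPM in Interstitial A and 14.1 in Interstitial B, and at 0.27 and 0.20 in Leydig and 0.31 and 0.26 in Sertoli. It was called over the 3 pairs (log2 difference 2.56 ± 0.43, edgeR adjusted p = 0.030) although Leydig and Sertoli were slightly lower in B. Chga was at 1.48 and 5.33 CPM in Interstitial A and B and was not called. Enzymes of catecholamine synthesis were too low to be tested: in Interstitial A and B, Th had 23 and 89 reads and Dbh 23 and 231, with at most 3 reads in each other library. Other untested neural genes went the other way: Stmn2, a general neuronal gene, had 111 and 73 reads and Prph, a neuronal filament gene, 9 and 5. The neural list as a whole had 0 calls among 7 tested genes (3 higher at an unadjusted p under 0.05, 0 with DESeq2).

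Genes of neutrophil granules behaved likewise and were picked after their values were seen. Ltf, lactoferrin, was at 2.28 CPM in Interstitial A and 12.2 in Interstitial B, at 0 and 0.35 in Leydig and at 0 in both Sertoli libraries. In Sertoli A and B a count of 0 allows up to 0.080 and 0.086 CPM before the TMM factor. S100a9 went from 6.62 to 23.7 CPM and S100a8 from 4.599 to 15.95 in Interstitial, and both stayed under 1 CPM in the other 4 libraries. All 3 were called by edgeR over the pairs, as were BC100530 and Olfm4, but the calls rest on the Interstitial pair. Endothelial genes pointed the other way in Interstitial, with a median of -0.48 and Cdh5 at 42.9 and 29.4 CPM, but edgeR called 0 of 18 over the 3 pairs (3 lower at an unadjusted p under 0.05, 0 with DESeq2) and 0 as an Interstitial shift.

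Only Gm26870 was called as a Sertoli shift at an adjusted p under 0.05, and it was also called for Leydig. At an unadjusted p under 0.05 there were 486 higher and 491 lower for Sertoli, against 207 and 340 for Interstitial and 770 and 365 for Leydig. Among protein-coding genes at 5 CPM or more, Fst, the activin-binding follistatin, had the lowest ratio of B to A, with 15.5 and 6.30 CPM in Sertoli, 2.29 and 1.88 in Leydig and 1.75 and 1.65 in Interstitial, and was not called. Tagln, an actin-binding protein of smooth muscle, rose from 4.73 to 14.2 CPM in Sertoli, from 18.3 to 35.1 in Leydig and from 18.9 to 25.5 in Interstitial (log2 difference 0.92, called over the 3 pairs).

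The genes that define the supporting and interstitial lineages lay close between the pools. edgeR called 0 of 28 Sertoli genes (5 higher and 4 lower at an unadjusted p under 0.05, and 1 higher with DESeq2), and the median of the list was -0.01. Dhh, the Sertoli ligand of the hedgehog pathway, was at 429 and 428 CPM in Sertoli A and B, at 116 and 120 in Leydig and at 14.8 and 17.6 in Interstitial. Nr5a1, whose reporter defined the sort, was at 210 and 189 CPM in Leydig, 385 and 388 in Sertoli and 52.2 and 56.5 in Interstitial. Of 19 interstitial progenitor genes, Hes1 was called higher and Pdgfrb, a PDGF receptor, lower (log2 difference -0.36). Pdgfra, the other receptor of that family, was at 724 and 662, 215 and 228, and 433 and 434 CPM, and Nr2f2, a nuclear receptor of interstitial progenitors, at 204 and 191, 52.5 and 56.3, and 197 and 190.0. Neither was called.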

How the data were processed

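The deposited table gives raw read counts per gene for each library and sequencing lane, and the 4 lanes of a library were summed. Per the labels' protocols the authors made stranded total RNA libraries after ribosomal depletion, and per the submitters' processing notes they used TopHat2 2.0.6, HTSeq and mm10. No source used here names the strand setting of the counting. Counts of overlapping and antisense genes are therefore uncertain. Of 38560 gene rows, 36722 IDs matched a symbol in GENCODE M21, and the 5 summary lines (unassigned reads) stayed out of all totals. Genes passing edgeR's filterByExpr (17211) were scaled by TMM and fitted with edgeR 4.0.16 (R 4.3.3) by population and pool, with 2 residual degrees of freedom. A second fit let 1 population differ, with 1 residual degree of freedom, so it leans on the spread shared over genes. That degree of freedom holds only the disagreement between the other populations. Within a population there is 1 library for each pool, and log2 CPM differences (prior count 2) are descriptions. The pairing by population is part of the main fit. Genes were named by a rule: the 10 largest called differences each way at 5 CPM or more, the 6 largest for each population, up to 3 for each list, and a set of markers. Members and lists were chosen with earlier results of these data known. Alternatives changed the scaling, tool (DESeq2 1.42.0, limma 3.58.1 voom), filter, lanes, block and population left out. The code was tested on simulated data.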

Additional observations from a re-analysis of the deposited data

Results flagged for a closer look

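The following genes stood out because the difference between pool B and pool A in 1 population differed, by edgeR's test of that difference, from the one in the other 2. Values are log2 differences relative to the other populations. In Leydig the largest were Gm10800 (8.56), Zfp640 (3.96), Gm26870 (3.58), Cpsf4l (3.02), Gm10324 (2.81) and Mael (2.78), the last a germ cell gene of transposon silencing. Gm10800 had no read in Leydig A and Interstitial A, so its fitted value depends on the prior and sets no bound. Gm26870 was also the only gene singled out in Sertoli (-4.37). It was at 0.362 and 7.72 CPM in Leydig A and B, at 20.4 and 25.3 in Sertoli and at 0.050 and 2.68 in Interstitial. In Interstitial the genes were Xist (-3.47) and the globin genes Hbb-bt (-1.95), Hba-a2 (-1.72), Hba-a1 (-1.71), Hbb-y (-1.50) and Hba-x (-1.46). Zfp640 was at 0.151 and 1.85 CPM in Leydig, 0.759 and 0.177 in Sertoli and 6.72 and 5.94 in Interstitial. Their causes were not tested.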

How the results depend on the processing

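The 173 called genes kept their direction in all 2397 alternative values, of which 606 no longer passed the threshold, and the 23 called population differences that were recomputed gene by gene kept theirs in 230, of which 41 no longer passed. These genes were selected by their calls in the same libraries, so a kept direction is no further test. Of the 114 called higher and 59 called lower, 108 and 59 already moved the same way in all 3 populations. The 114 genes higher and 59 lower in B became 61 and 38 with no filter on low counts. Without the population block edgeR called 0 and 0 (61 and 46 at an unadjusted p under 0.05). With 1 population left out the counts ran from 46 (without Interstitial) over 54 (without Sertoli) to 156 (without Leydig) higher, and from 20 over 36 to 86 lower. Of the 114 and 59 genes, DESeq2 also called 94 and 51. The Leydig differences (184 genes) became 60 with DESeq2, 8 with no filter, and 91 and 72 with lanes 1 and 2 or 3 and 4 alone. The Sertoli count of 1 became 2 with voom and 3 with lanes 3 and 4. The Interstitial count of 6 became 14 with library size alone, 10 with DESeq2 and 2 with no filter. Genes at 1.5-fold within a population, 1588, 1317 and 1162 in Leydig, Sertoli and Interstitial, became 5823, 4402 and 4735 with no filter, 680, 481 and 413 at 1 CPM in 3 libraries, and 606, 363 and 271 at 2-fold. The median of the germ cell list, 0.46, was -0.10 without the Leydig pair. With mitochondrial rRNA and tRNA genes left out, those lists have no members and no value. The causes of these changes were not tested. With 3 pairs and 1 library for each, a shift in 1 population rests on 2 libraries and cannot be told apart from the preparation of either. For a gene without reads, the upper limit was 0.0777 to 0.0906 CPM before the TMM factor, depending on the library.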

Other observations

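Genes outside every list with falls called over the 3 pairs, picked after their values were seen, included Agtr2, the type 2 angiotensin receptor of fetal mesenchyme, at 65.6 and 44.2 CPM in Interstitial A and B, 2.35 and 1.82 in Leydig and 1.24 and 0.853 in Sertoli (log2 difference -0.53 ± 0.09, edgeR adjusted p = 0.029). Lgals1, the galectin of mesenchymal cells, fell by 0.28, Igfbp4, a binding protein of insulin-like growth factors, by 0.24, and Prnd, a prion-like protein gene, by 0.97 on the log2 scale. Col2a1, the cartilage collagen gene that Sox9 activates, was among the genes called higher, at 188 and 254 CPM in Sertoli, 55.3 and 67.0 in Leydig and 11.5 and 15.6 in Interstitial (log2 difference 0.38 ± 0.05, edgeR adjusted p = 0.0099). Sox9 itself was not called and lay at 116 and 157 CPM in Sertoli, 10.4 and 13.7 in Interstitial, and higher in Leydig B than in Leydig A by 0.12 on the log2 scale. Both genes were higher in B in each pair.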
